A study of Homo sapiens with 9 samples.

Results

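Expression of 42 genes of glycolysis and of the hypoxia response was examined in the human breast cancer line MDA-MB-231 (Par) and in its metastatic sub-populations LM2 and BrM2. The genes were found by their symbol in the deposited count table, where each had 1 row, and they make up 42 of its 58884 genes. They comprise 17 glycolytic enzymes, 8 glucose and lactate transporters and regulators of glycolysis, 15 other genes known as targets of the hypoxia-inducible factors (HIF), and the genes of 2 HIF alpha subunits. Par is the parental line, LM2 a variant selected in mice for colonization of the lung, and BrM2 a variant selected for colonization of the brain. Each line was measured by RNA-seq in 3 biological replicates at different passages, which gives 9 libraries. All 3 lines were cultured alike, as monolayers kept for 3 days in DMEM with serum and antibiotics, with no treatment and no low-oxygen arm. Each sub-population is a single selected line, so a difference between lines describes these cultures and not lung or brain metastases in general.

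Glycolysis splits glucose into pyruvate, which is either oxidized in mitochondria or reduced to lactate and exported, and many tumour cells use it heavily even where oxygen is plentiful. The HIF transcription factors join an oxygen-sensitive alpha subunit (HIF1A or EPAS1) to the stable partner ARNT. With oxygen present, the prolyl hydroxylases of the EGLN family mark the alpha subunit for destruction, and when oxygen is low the complex accumulates and raises the transcription of glucose transporters, glycolytic enzymes, pH regulators and angiogenic factors. Since this control acts on the protein, the RNA of an alpha subunit does not report how much of it is present.

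Counts on genes ranged from 14371858 in BrM2 replicate 1 to 24511786 in LM2 replicate 3. Levels are given as CPM, counts scaled to a common library size after TMM normalization, and the tests are the quasi-likelihood tests of edgeR over all 13001 genes that passed a filter on low counts, with p-values adjusted by the Benjamini-Hochberg method and a threshold of 0.05. Of the 42 members 40 passed the filter. SLC16A1 had 3 to 23 counts per library and ANKRD37 had 27 to 38, and neither was tested. The mesenchymal genes VIM, CD44, MSN and AXL, which mark this line, summed to 3394 CPM or more in every library. Of 8 luminal and epithelial genes, ESR1, PGR and CLDN3 stayed under 1 CPM in every library, and 5 exceeded it in at least 1. CLDN4 was at 95.4 ± 19.6 CPM (SD, n = 3) in Par, 5.84 ± 1.69 in LM2 and 20.01 ± 11.7 in BrM2, and GATA3 at 12.9 ± 3.41, 4.33 ± 0.44 and 7.50 ± 2.36. The 8 genes summed to 94.7 to 139 CPM in the Par libraries, 16.5 to 25.9 in LM2 and 29.9 to 68.1 in BrM2. The sum, to which CLDN4 gave the largest part in Par, thus moved with the lines, but the genes did not all go the same way. FOXA1 was at 0 to 0.0393 CPM in Par, 0.530 to 0.645 in LM2 and 1.33 to 2.64 in BrM2. CLDN7 was at 14.6, 13.6 and 11.9 CPM in Par replicates 1 to 3, at 12.4, 6.53 and 5.98 in LM2, and at 22.4, 11.8 and 13.0 in BrM2. The part of these 8 genes in the differences between lines was not tested. The leukocyte markers summed to at most 4.62 CPM and the endothelial markers to at most 7.63 CPM. PTPRC, CD3E, CDH5 and VWF were all near 0. CD14 ranged from 0.927 to 4.57 CPM and PECAM1 from 2.08 to 7.19 CPM, and both passed the filter on low counts.

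Before the lines were compared, the libraries with the same replicate number were set side by side, since replicate 1 stood apart from replicates 2 and 3 in all 3 lines. Replicate 1 differed from the mean of the other two in 33 of 40 tested members, 24 of them higher and 9 lower, while 72.7% of all tested genes were called in this contrast, 35.9% higher and 36.8% lower. Replicate 1 was singled out because of this difference, and the count is therefore a description. The glycolytic enzymes were shifted upward as a group: 14 of 17 were called higher and 1 lower, and their median log2 difference was 0.68 against 0.01 over all tested genes. Leaving out ALDOA and LDHB, whose counts are very low (described with the levels), 13 of 15 were higher and 1 lower with the same median, ALDOA being 1 of the 14. GAPDH, the enzyme of the oxidative step, was higher in replicate 1 by 1.05 ± 0.119 (log2 difference ± SE), PKM, which makes pyruvate, by 1.002 ± 0.121, and the glucose transporter SLC2A1 by 1.03 ± 0.0983. LDHA, which converts pyruvate to lactate, did not pass the test (0.10 ± 0.0977, adjusted p = 0.353). HIF1A was lower in replicate 1 by a log2 difference of -1.35 ± 0.125, as were PLOD2, which modifies collagen lysines (-1.48 ± 0.144), and P4HA1, a subunit of collagen prolyl 4-hydroxylase (-1.10 ± 0.138). The 17 enzymes together took 2.61% to 3.44% of all counts in the replicate 1 libraries and 1.74% to 2.004% in the other 6. What set replicate 1 apart was not tested. Because replicate 1 deviates alike across the lines, each comparison is also given with the replicate number as a block, and without replicate 1. Whether numbers 2 and 3 match across the lines is less clear.

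**Figure D1:**
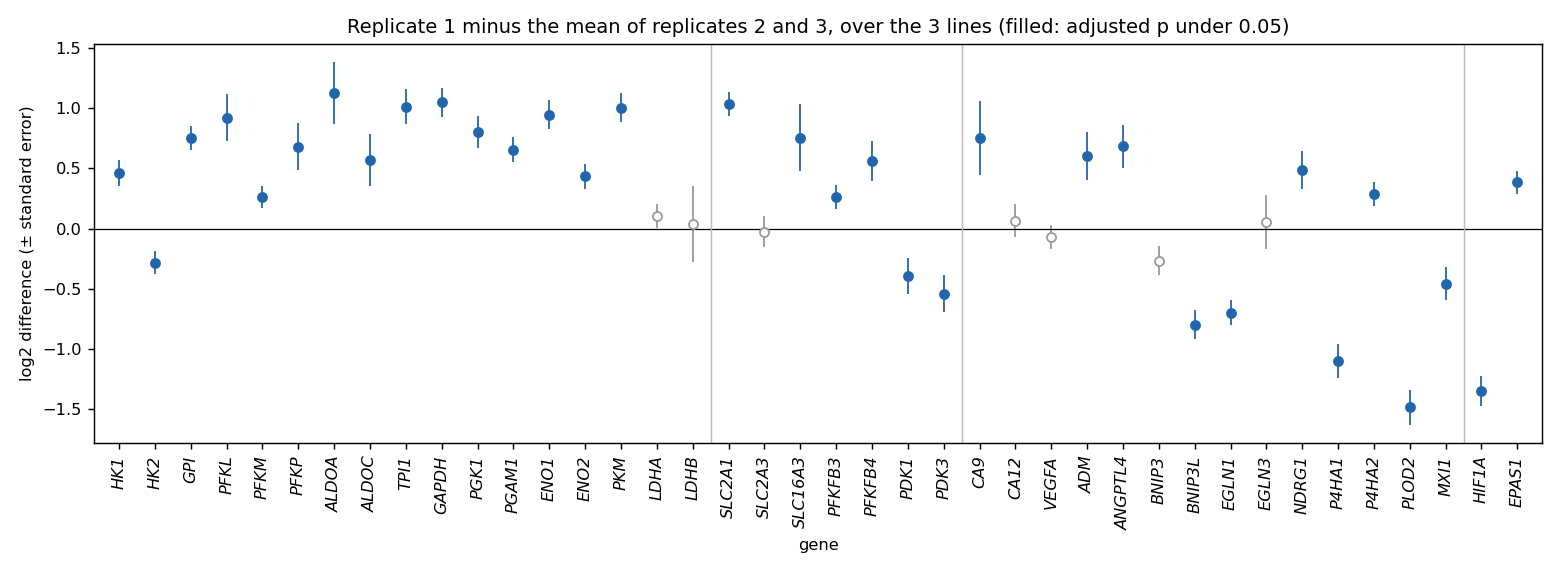
Log2 difference between replicate 1 and the mean of replicates 2 and 3, averaged over Par, LM2 and BrM2 (vertical axis), for each of the 40 tested members (horizontal axis), with bars for 1 standard error and filled points for an adjusted p under 0.05. From left to right the vertical lines part glycolytic enzymes, transporters and regulators, other HIF targets and HIF alpha subunits. The enzymes other than HK2 lie above 0, among them ALDOA and LDHB, whose counts are very low. LDHB (0.04 ± 0.313) and LDHA did not pass the test. HIF1A, PLOD2 and P4HA1 lie below -1.

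The members differed by orders of magnitude in level. Per kilobase of transcript, the mean levels in Par were 3088 CPM for the enolase ENO1, 2923 for GAPDH, 2319 for PKM, 1076 for LDHA and 1038 for the triosephosphate isomerase TPI1. The ranges of ENO1, GAPDH and PKM over the Par libraries overlapped. Within each Par library PKM was the lowest of the 3 per kilobase, while the order of ENO1 and GAPDH was not the same in all of them. PGK1, a kinase that yields ATP (256 CPM per kilobase), and SLC2A1 (246) followed, again with overlapping libraries. At the low end were ANGPTL4, a secreted inhibitor of lipoprotein lipase (1.81 CPM per kilobase), and CA9, a cell-surface carbonic anhydrase (0.903). ALDOA and LDHB, an aldolase and a lactate dehydrogenase, had only 13 to 41 and 28 to 86 counts per library. In the GENCODE annotation lifted to GRCh37, which is not the annotation the authors counted on, 89.8% of the exon bases of ALDOA and 76.5% of those of LDHB lie under another gene on the same strand. The part of this overlap in their low counts was not tested, and no direction between the lines is described for either on its own. Neither was called in a comparison of lines, so the numbers of members called are the same without them. The median of the enzymes in BrM2 against Par is -0.05 with them and 0.08 without them. SLC16A1, a lactate transporter, also had low counts and has no such overlap.

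**Figure D2:**
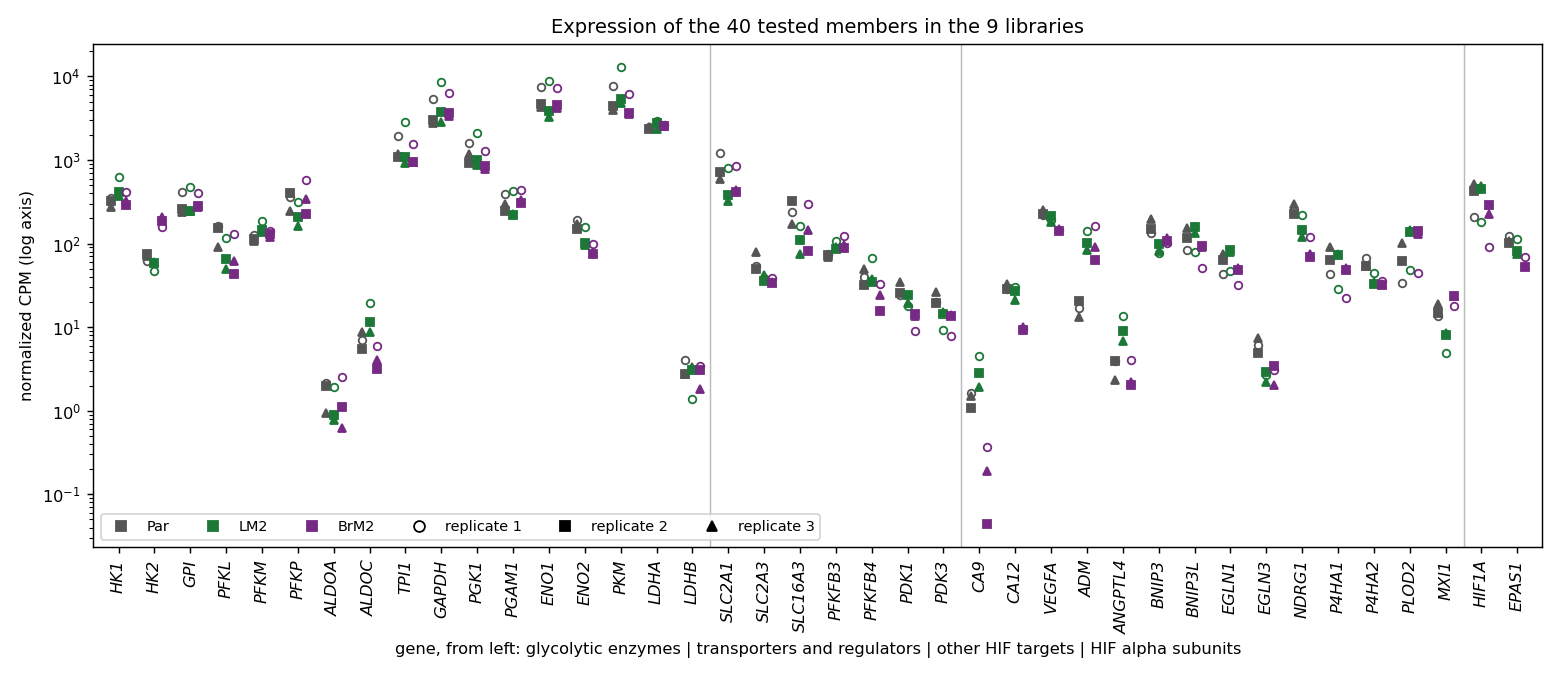
Normalized CPM on a log axis of the 40 tested members in each of the 9 libraries. Colour gives the line (Par, LM2, BrM2) and marker shape the replicate. HK2 is highest in the BrM2 libraries and CA9 and CA12 are lowest there, and the Par libraries of ADM lie under those of both sub-populations.

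Which of these genes distinguish the metastatic sub-populations from Par was asked first for BrM2. In BrM2 against Par 11 of 40 members passed the test, 2 of them higher (HK2 and ADM) and 9 lower (ENO2, PDK1, CA9, CA12, VEGFA, EGLN3, NDRG1, P4HA2 and EPAS1), a share of 27.5% where 13.2% of all tested genes were called, 6.25% higher and 6.99% lower. The median log2 fold change was -0.48 over the members and -0.02 over all tested genes. With the replicate block 25 members passed, 5 higher and 20 lower, against 42.7% of all genes, and without replicate 1 of each line 26 passed, against 40.4%. In LM2 against Par 5 members passed, 2 higher (ADM and ANGPTL4) and 3 lower (BNIP3, EGLN3 and MXI1), a share of 12.5% with 8.65% of all genes called, 4.17% higher and 4.48% lower. The median was -0.14 against 0.01. The block gave 21 calls, 9 higher and 12 lower, where 34.5% of all genes were called, and leaving out replicate 1 gave 19, against 33.1%. Both comparisons share the Par libraries. The members were chosen with earlier results of these data known, so the shares describe these genes and are no test of the pathways. Directly between the sub-populations, 6 members differed, 2 higher in BrM2 (HK2 and MXI1) and 4 lower (ALDOC, CA9, CA12 and ANGPTL4), which is 15.0% with 8.08% of all genes called, 4.08% higher and 4.0% lower. Here the block gave 20 calls, 4 higher and 16 lower, against 37.5% of all genes, and 18 were called without replicate 1, against 32.6%. Counted without a test, the libraries of the 2 lines did not overlap for 4 members that were higher and 12 that were lower in BrM2 than in Par (31.3% of all genes), for 6 higher and 10 lower in LM2 than in Par (25.1%), and for 3 higher and 9 lower in BrM2 than in LM2 (23.1%).

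**Figure D3:**
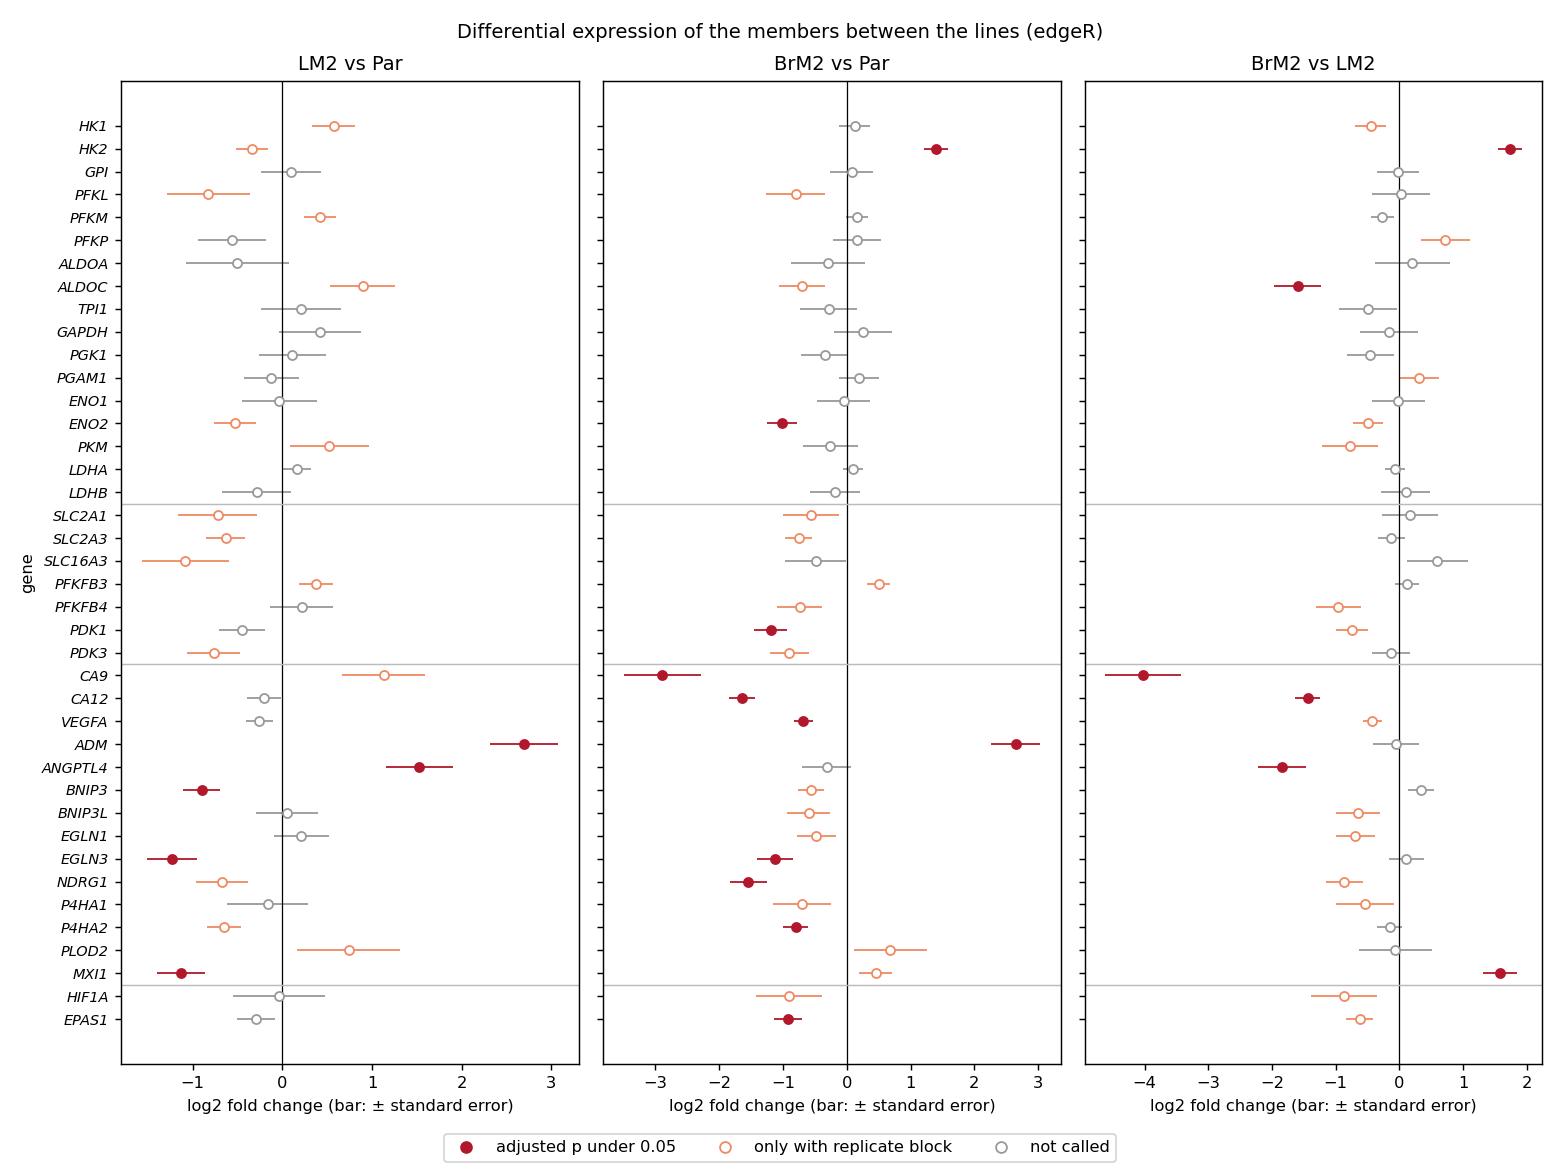
Log2 fold change (horizontal axis) with its standard error for each tested member in the 3 comparisons of lines. Filled red points passed an adjusted p of 0.05, open orange points passed it only with the replicate number as a block, and grey points in neither fit. In BrM2 against Par most of the other HIF targets lie left of 0 while ADM lies far to the right, and the glycolytic enzymes scatter around 0 apart from HK2 and ENO2.

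Few glycolytic enzymes were called without the block, and those called went in both directions. In BrM2 against Par, 2 of 17 passed the test, HK2 higher and ENO2 lower, which is 11.8% where 13.2% of all genes were called. With the block 4 passed, 1 higher and 3 lower, which is 23.5% against 42.7%. Both shares are below those of all genes. In LM2 against Par 0 of 17 passed in edgeR, 3 had an unadjusted p under 0.05, and DESeq2 also called 0 of them beside 14.5% of all genes. With the block 7 enzymes passed, 4 higher (HK1, PFKM, ALDOC and PKM) and 3 lower (HK2, PFKL and ENO2), which is 41.2% against 34.5% of all genes. Between BrM2 and LM2, HK2 was higher and ALDOC lower (11.8% against 8.08%), and with the block 7 passed, 3 higher and 4 lower (41.2% against 37.5%). Among the most abundant enzymes, ENO1, GAPDH, LDHA and TPI1 passed in none of the 3 comparisons with or without the block, while PKM passed with the block in LM2 against Par (higher) and in BrM2 against LM2 (lower). Without LM2 replicate 1 the log2 fold change of PKM in LM2 against Par was -0.089, from 0.53 with all libraries. That fit kept replicate 1 of Par. PKM was at 7583, 4445 and 4008 CPM in Par replicates 1 to 3 and at 13020, 5310 and 4744 in LM2, higher in LM2 within each number.

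HK2, the inducible hexokinase that phosphorylates incoming glucose, lies at chr2:74834127-74893359 (GRCh38). Its level was 62.5, 74.7 and 71.7 CPM in Par replicates 1, 2 and 3, 47.4, 58.0 and 59.8 in LM2, and 159, 185 and 207 in BrM2. The BrM2 libraries were all far above the other 6, and the LM2 libraries were all slightly below those of Par. HK2 was 2.63-fold higher in BrM2 than in Par (log2 1.40 ± 0.185, adjusted p = 0.00136) and 3.33-fold higher than in LM2 (1.74 ± 0.187, adjusted p = 0.000695), and both calls held when any 1 library was left out. The difference of -0.34 ± 0.182 between LM2 and Par passed only with the block (adjusted p = 0.364 without and 0.0294 with it). HK1, the hexokinase found in most tissues, was at 317 ± 39.7 CPM in Par, 471 ± 137 in LM2 and 344 ± 66.3 in BrM2 (SD, n = 3). Per kilobase, HK2 in the BrM2 libraries stood at 0.243, 0.404 and 0.413 of HK1 for replicates 1, 2 and 3, against 0.113 to 0.167 in Par and 0.0484 to 0.104 in LM2. The 3 ranges did not overlap, although HK1 remained the more abundant of the pair in every library.

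The HK2 promoter is shown because HK2 was the one glycolytic enzyme that rose in the fit without the block. These are the 250 bases before its first annotated start, on the plus strand of GRCh38.p14 at chr2:74833877-74834126, from RefSeq. Capitals mark each ACGTG or GCGTG, the core of the element that HIF complexes bind, on either strand.
HK2: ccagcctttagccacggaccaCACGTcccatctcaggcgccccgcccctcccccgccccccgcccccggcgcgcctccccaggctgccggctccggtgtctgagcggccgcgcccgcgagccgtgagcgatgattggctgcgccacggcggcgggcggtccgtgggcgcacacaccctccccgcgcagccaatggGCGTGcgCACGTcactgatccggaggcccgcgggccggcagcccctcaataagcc
It held 3 matches, the nearest beginning 48 bases before the start. The window of another annotated start of HK2, at chr2:74834920-74835169, held 6 matches and is not shown. Of 35116 promoters of this length in the table, 43.2% held at least 1 match. Among the members, 37 had an entry, with 66 starts in all, and 60.6% of these held a match, with 51.4% of 37 starts of glycolytic enzymes and 78.6% of 14 starts of the other HIF targets. The letters alone do not show that HIF binds.

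ENO2, the enolase typical of neurons, was at 190, 150 and 171 CPM in Par replicates 1 to 3, at 156, 103 and 96.01 in LM2, and at 100, 75.8 and 76.3 in BrM2. All 3 BrM2 libraries lay below all Par libraries. It was 2.03-fold lower in BrM2 than in Par (log2 -1.02 ± 0.235, adjusted p = 0.021). The call was lost when Par replicate 1 or 3 or BrM2 replicate 2 or 3 was left out (log2 -1.02 to -0.94, adjusted p from 0.0671 to 0.11). ENO1, the enolase of most cells, was at 5501 ± 1744 CPM in Par, 5367 ± 3102 in LM2 and 5312 ± 1718 in BrM2 (SD, n = 3).

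ALDOC, an aldolase best known from brain, was at 7.04, 5.47 and 8.77 CPM in Par, at 19.5, 11.5 and 8.74 in LM2, and at 5.91, 3.18 and 4.07 in BrM2, in the order of the replicates. The LM2 and BrM2 libraries did not overlap, and the Par libraries overlapped both. The gene was 3.03-fold lower in BrM2 than in LM2 (log2 -1.60 ± 0.371, adjusted p = 0.0307). Leaving out Par replicate 1 or 2, LM2 replicate 1 or 2, or BrM2 replicate 2 or 3 ended this call (log2 -1.69 to -1.21, adjusted p from 0.0507 to 0.13). Replicate 1 of LM2 had the highest level.

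LDHA was at 2461, 2322 and 2451 CPM in Par replicates 1 to 3, 2958, 2769 and 2351 in LM2, and 2644, 2554 and 2533 in BrM2. The BrM2 libraries lay just above all those of Par, and the LM2 libraries overlapped both. The log2 fold change was 0.10 ± 0.156 in BrM2 against Par (adjusted p = 0.799) and 0.16 ± 0.156 in LM2 against Par (adjusted p = 0.688), and neither passed with the block. Of the sequence of LDHA, 12.2% of the stretches of 50 bases also occur in other genes, mostly pseudogene copies with few counts.

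The 3 isoforms of phosphofructokinase, which commits glucose to glycolysis, were the liver form PFKL, the muscle form PFKM and the platelet form PFKP. None was called in the fit without the block. Within each library, however, the ratio of PFKP to PFKL per kilobase separated all 3 lines. It was 2.47, 2.90 and 3.00 in Par replicates 1 to 3, 3.05, 3.49 and 3.63 in LM2, and 4.92, 5.79 and 5.98 in BrM2. The log2 ratio was higher than in Par by 0.28 in LM2 and 0.99 in BrM2, with pooled SDs of 0.141 and 0.15. Such ratios need no scaling between libraries, and with 3 libraries against 3 an exact permutation test cannot go below p = 0.1, so they are given without a test.

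**Figure D4:**
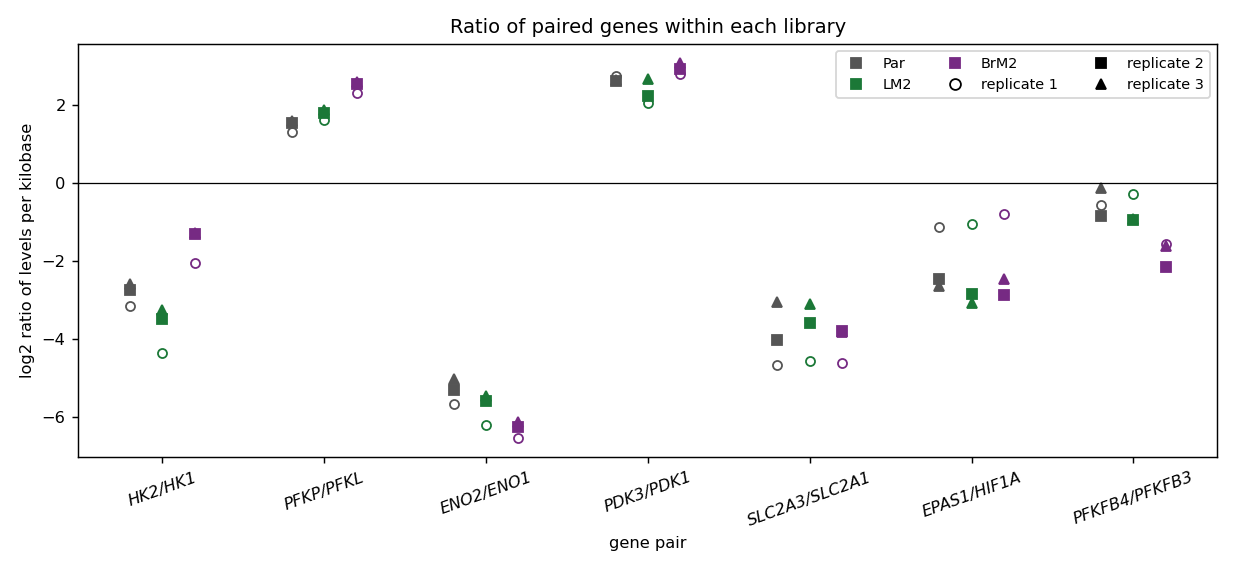
Log2 ratio of the levels per kilobase of 7 pairs of related genes within each library. Colour gives the line and marker shape the replicate. The ratios HK2/HK1 and PFKP/PFKL separate the 3 lines without overlap and are highest in BrM2, PFKFB4/PFKFB3 is lowest in BrM2, and the replicate 1 libraries stand apart in EPAS1/HIF1A.

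Among transporters and regulators of glycolysis, 1 of 7 tested members passed in BrM2 against Par (PDK1, lower), which is 14.3% against 13.2% of all genes. In LM2 against Par 0 passed in edgeR, where 8.65% of all genes were called. Of the 7, 2 had an unadjusted p under 0.05 there, and DESeq2 called 0 beside 14.5% of all genes. In BrM2 against Par DESeq2 called 3, all lower, beside 19.3% of all genes. The group's median log2 fold changes were -0.74 in BrM2 and -0.63 in LM2. With the block 6 passed in BrM2, 1 higher (PFKFB3) and 5 lower (SLC2A1, SLC2A3, PFKFB4, PDK1 and PDK3), which is 85.7% against 42.7% of all genes. In LM2 5 passed with the block, 1 higher (PFKFB3) and 4 lower (SLC2A1, SLC2A3, SLC16A3 and PDK3), which is 71.4% against 34.5%. Between BrM2 and LM2, 0 passed in edgeR, where 8.08% of all genes were called. Here 2 had an unadjusted p under 0.05, and DESeq2 called 1, lower in BrM2, beside 13.9% of all genes. With the block PFKFB4 and PDK1 were lower in BrM2, which is 28.6% of the group against 37.5% of all genes.

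SLC2A1, the main glucose transporter GLUT1, was at 1208, 709 and 584 CPM in Par replicates 1 to 3, at 807, 386 and 324 in LM2, and at 849, 418 and 432 in BrM2. Replicate 1 was the highest in each line, and the lines overlapped. Its log2 fold change was -0.72 ± 0.442 in LM2 against Par (adjusted p = 0.443, and 0.000604 with the block) and -0.56 ± 0.441 in BrM2 (adjusted p = 0.52, and 0.00281 with the block). SLC2A3, the high-affinity transporter GLUT3, stood at 60.5 ± 16.1 CPM in Par, 39.0 ± 3.13 in LM2 and 35.8 ± 2.76 in BrM2 (SD, n = 3), and both sub-populations lay below all Par libraries. It too was called only with the block (adjusted p = 0.0089 in LM2 and 0.00269 in BrM2, against 0.125 and 0.0521 without). Of the stretches of 50 bases of SLC2A3, 24.7% also occur in other genes, chiefly SLC2A14. SLC2A14 itself had only 0 to 7 counts per library. The 8 genes that share any stretch had a summed mean of 2806 counts over their whole length, against 981 for SLC2A3. That sum does not measure reads from the shared stretches, and the values of SLC2A3 are uncertain in the shared part. How the counting split such reads was not tested. SLC16A3, which exports lactate, was at 244 ± 77.0 CPM in Par, 115 ± 43.8 in LM2 and 175 ± 112 in BrM2.

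PDK1, which restrains the entry of pyruvate into mitochondria by inhibiting pyruvate dehydrogenase, was at 24.1, 25.6 and 34.7 CPM in Par replicates 1 to 3, at 18.1, 24.4 and 19.3 in LM2, and at 9.01, 14.4 and 13.5 in BrM2. The BrM2 libraries lay below the other 6. PDK1 was 2.28-fold lower in BrM2 than in Par (log2 -1.19 ± 0.257, adjusted p = 0.0156), and the call was lost without Par replicate 3 or BrM2 replicate 3 (log2 -1.01 and -1.26, adjusted p of 0.0651 and 0.0539). PDK3, a related kinase, was at 22.0 ± 3.97 CPM in Par, 12.9 ± 3.20 in LM2 and 11.8 ± 3.49 in BrM2, and passed only with the block in both (adjusted p = 0.00453 and 0.0014). PFKFB3 and PFKFB4 make the activator of phosphofructokinase, fructose 2,6-bisphosphate, and their ratio was lowest in BrM2. Per kilobase PFKFB4 stood at 0.337, 0.225 and 0.326 of PFKFB3 in BrM2, against 0.553 to 0.918 in Par and 0.516 to 0.822 in LM2. The BrM2 libraries did not overlap with either.

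The other HIF targets held most of the calls without the block, among members chosen with earlier results of these data known. In BrM2 against Par 7 of 14 tested genes passed, 1 higher and 6 lower, with a median log2 fold change of -0.64, where 13.2% of all genes were called. With the block 3 were higher and 10 lower, which is 92.9% against 42.7%. In LM2 against Par 5 passed, 2 higher and 3 lower, with a median of -0.18 (35.7% against 8.65% of all genes), and 4 higher and 5 lower with the block (64.3% against 34.5%). Between BrM2 and LM2, 1 was higher and 3 lower, with a median of -0.48 (28.6% against 8.08%), and with the block 1 was higher and 8 lower (64.3% against 37.5%).

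CA9 and CA12 are carbonic anhydrases of the plasma membrane that regulate pH around the cell. CA12 was at 28.3, 28.4 and 33.1 CPM in Par replicates 1 to 3, at 30.0, 26.7 and 21.3 in LM2, and at 9.45, 9.27 and 10.0 in BrM2. The 3 BrM2 values were close together and below the other 6, while LM2 and Par overlapped. CA12 was 3.12-fold lower in BrM2 than in Par (log2 -1.64 ± 0.198, adjusted p = 0.000846) and 2.71-fold lower than in LM2 (-1.44 ± 0.197, adjusted p = 0.0025), and both calls held without any 1 library.

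CA9 was rare in all lines, with 31, 22 and 38 counts in Par replicates 1 to 3, 90, 70 and 50 in LM2, and 5, 1 and 4 in BrM2. As CPM these are 1.63, 1.06 and 1.49, then 4.47, 2.86 and 1.92, then 0.369, 0.0442 and 0.192. The 3 lines did not overlap. CA9 was 7.43-fold lower in BrM2 than in Par (log2 -2.89 ± 0.602, adjusted p = 0.0132) and 16.3-fold lower than in LM2 (-4.03 ± 0.59, adjusted p = 0.00348). The first of these calls was lost without BrM2 replicate 3 (log2 -2.93, adjusted p = 0.0625). Between LM2 and Par the log2 fold change was 1.13 ± 0.463 and passed only with the block (adjusted p = 0.206 without and 0.0215 with it). With so few counts in BrM2 the folds are imprecise. Of the exon bases of CA9, 36.9% lie opposite ARHGEF39, which had 183 to 365 counts per library, and the strand that was counted is not given in the sources used here. CA9 is on chromosome 9, where the 483 tested genes had a median log2 fold change of -0.37 in BrM2 against Par, -0.48 in BrM2 against LM2 and 0.15 in LM2 against Par. The part that either of these plays in the CA9 values was not tested.

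ADM encodes adrenomedullin, a vasodilating peptide. Its level was 17.0, 20.6 and 13.0 CPM in Par replicates 1 to 3, 141, 103 and 83.6 in LM2, and 162, 63.7 and 91.3 in BrM2. Every library of both sub-populations was above every Par library. ADM was 6.48-fold higher in LM2 than in Par (log2 2.696 ± 0.383, adjusted p = 0.00282) and 6.26-fold higher in BrM2 (2.65 ± 0.382, adjusted p = 0.00215). Both calls held whichever library was left out, and LM2 and BrM2 overlapped.

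The promoters of these 3 genes are shown because ADM rose in both sub-populations while CA9 and CA12 were lower in BrM2. Each is given 5′ to 3′ as the 250 bases before the annotated start from RefSeq in GRCh38.p14, with the same 5-letter cores in capitals. ADM is at chr11:10304823-10305072 on the plus strand, CA9 at chr9:35673678-35673927 on the plus strand and CA12 at chr15:63381847-63382096 on the minus strand.
ADM: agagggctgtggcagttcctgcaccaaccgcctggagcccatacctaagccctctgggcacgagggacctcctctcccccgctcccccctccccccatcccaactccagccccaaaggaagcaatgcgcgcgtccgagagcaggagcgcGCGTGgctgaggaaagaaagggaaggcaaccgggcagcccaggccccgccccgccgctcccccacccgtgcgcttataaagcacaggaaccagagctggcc
CA9: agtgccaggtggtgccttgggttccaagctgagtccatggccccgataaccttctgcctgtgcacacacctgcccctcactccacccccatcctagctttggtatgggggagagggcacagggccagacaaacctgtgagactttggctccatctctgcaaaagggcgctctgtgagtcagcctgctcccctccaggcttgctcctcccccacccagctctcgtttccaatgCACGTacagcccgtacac
CA12: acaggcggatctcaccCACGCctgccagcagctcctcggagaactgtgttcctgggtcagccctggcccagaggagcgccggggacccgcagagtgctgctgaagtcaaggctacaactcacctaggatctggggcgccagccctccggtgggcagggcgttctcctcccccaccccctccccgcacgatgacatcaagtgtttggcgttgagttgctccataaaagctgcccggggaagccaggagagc
Each window held 1 match. It began 101 bases before the start in ADM, 18 bases before it in CA9 and 234 bases before it in CA12.

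VEGFA, the main angiogenic growth factor, was at 220, 228 and 254 CPM in Par replicates 1 to 3, at 189, 216 and 182 in LM2, and at 146, 143 and 148 in BrM2. The lines did not overlap and BrM2 was the lowest. It was 1.60-fold lower in BrM2 than in Par (log2 -0.68 ± 0.152, adjusted p = 0.0185). Without Par replicate 2 or 3 or BrM2 replicate 2 or 3 the call was lost (log2 -0.70 to -0.62, adjusted p from 0.065 to 0.0853). The log2 difference of -0.42 ± 0.152 between BrM2 and LM2 passed only with the block (adjusted p = 0.149 without and 0.0149 with it).

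ANGPTL4 was at 3.89, 3.92 and 2.36 CPM in Par replicates 1 to 3, at 13.5, 8.90 and 6.86 in LM2, and at 3.99, 2.03 and 2.20 in BrM2. The LM2 libraries lay above the other 6, and Par and BrM2 overlapped. It was 2.88-fold higher in LM2 than in Par (log2 1.53 ± 0.374, adjusted p = 0.0374) and 3.59-fold lower in BrM2 than in LM2 (-1.84 ± 0.381, adjusted p = 0.0185). The first call was lost in 7 of 9 fits, without any of the Par replicates, LM2 replicate 1 or 2, or BrM2 replicate 2 or 3 (log2 1.22 to 1.64, adjusted p from 0.0508 to 0.135). The second was lost without LM2 replicate 2 or BrM2 replicate 2 or 3 (log2 -1.90 to -1.68, adjusted p from 0.0553 to 0.0964).

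NDRG1, a stress-responsive gene linked to growth arrest, was at 252, 226 and 294 CPM in Par replicates 1 to 3, at 218, 144 and 121 in LM2, and at 121, 68.6 and 75.6 in BrM2. Both sub-populations lay below Par, BrM2 the further. NDRG1 was 2.91-fold lower in BrM2 than in Par (log2 -1.54 ± 0.295, adjusted p = 0.00884). Leaving out BrM2 replicate 2 or 3 took the adjusted p to 0.0515 and 0.0509. In LM2 against Par the log2 fold change was -0.67 ± 0.289 and passed only with the block (adjusted p = 0.234 without and 0.0107 with it). An unnamed gene without a count in these libraries shares 23.7% of the 50-base stretches of NDRG1.

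EGLN1 and EGLN3 are prolyl hydroxylases that tag HIF alpha subunits for degradation and are themselves HIF targets. EGLN3 was at 6.04, 4.89 and 7.43 CPM in Par replicates 1 to 3, at 2.68, 2.90 and 2.22 in LM2, and at 3.03, 3.40 and 2.01 in BrM2. The libraries of both sub-populations lay below those of Par. EGLN3 was 2.35-fold lower in LM2 (log2 -1.24 ± 0.278, adjusted p = 0.0263) and 2.18-fold lower in BrM2 (-1.12 ± 0.279, adjusted p = 0.0291). In LM2 the call was lost without Par replicate 1 or 3 or LM2 replicate 2 or 3 (log2 -1.32 to -1.07, adjusted p from 0.0719 to 0.109). In BrM2 it was lost without Par replicate 1 or 3, LM2 replicate 2 or any BrM2 replicate (log2 -1.28 to -0.93, adjusted p from 0.0515 to 0.119). EGLN1 was at 60.6 ± 15.7 CPM in Par, 70.2 ± 19.7 in LM2 and 43.4 ± 10.3 in BrM2 (SD, n = 3), and its log2 difference of -0.69 between BrM2 and LM2 passed only with the block (adjusted p = 0.00114). It shares 69.7% of its 50-base stretches with other annotated genes that had no counts here.

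BNIP3 and BNIP3L act in the removal of mitochondria by autophagy. BNIP3 was at 134, 150 and 197 CPM in Par replicates 1 to 3, at 76.2, 99.1 and 82.3 in LM2, and at 101, 108 and 118 in BrM2. Both sub-populations lay below Par. It was 1.87-fold lower in LM2 (log2 -0.90 ± 0.201, adjusted p = 0.0253), a call lost without Par replicate 2 or 3, any LM2 replicate, or BrM2 replicate 3 (log2 -1.02 to -0.73, adjusted p from 0.0516 to 0.0981). In BrM2 against Par the log2 fold change was -0.56 ± 0.2 and passed only with the block (adjusted p = 0.00734). The pseudogene BNIP3P1 shares 35.3% of its 50-base stretches and had a mean of 9.67 counts. BNIP3L was at 118 ± 35.0 CPM in Par, 123 ± 40.2 in LM2 and 78.1 ± 22.9 in BrM2.

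MXI1, a MAX-binding repressor that opposes MYC, was at 13.6, 14.6 and 18.8 CPM in Par replicates 1 to 3, at 4.97, 8.04 and 8.47 in LM2, and at 17.8, 23.4 and 23.3 in BrM2. The LM2 libraries were the lowest, and Par and BrM2 overlapped. MXI1 was 2.19-fold lower in LM2 than in Par (log2 -1.13 ± 0.265, adjusted p = 0.0312) and 3.00-fold higher in BrM2 than in LM2 (1.58 ± 0.267, adjusted p = 0.00724). The first call was lost without any of the Par replicates, LM2 replicate 2 or 3, or BrM2 replicate 3 (log2 -1.27 to -0.97, adjusted p from 0.0576 to 0.116), and the second held in all 9 such fits.

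The collagen-modifying enzymes did not move together. P4HA2, a subunit of prolyl 4-hydroxylase, was at 68.1, 54.4 and 53.3 CPM in Par replicates 1 to 3, at 44.3, 33.1 and 34.7 in LM2, and at 35.5, 32.3 and 33.0 in BrM2. The Par libraries were above the other 6. It was 1.74-fold lower in BrM2 (log2 -0.80 ± 0.193, adjusted p = 0.0255), a call lost without any of the Par replicates or BrM2 replicate 2 or 3 (log2 -0.87 to -0.68, adjusted p from 0.0561 to 0.118). In LM2 it passed only with the block (log2 -0.65 ± 0.192, adjusted p = 0.0768 without and 0.00163 with it). P4HA1 and PLOD2 were dominated by the replicate number: PLOD2 was at 33.4, 62.5 and 101 CPM in Par, 48.1, 137 and 144 in LM2, and 43.9, 140 and 131 in BrM2. Within a replicate number PLOD2 was higher in both sub-populations than in Par, and it passed only with the block (log2 0.71 in LM2, adjusted p = 0.00526, and 0.64 in BrM2, adjusted p = 0.00732).

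Of the HIF alpha subunits, HIF1A was at 207, 426 and 514 CPM in Par replicates 1 to 3, at 180, 447 and 489 in LM2, and at 92.1, 290 and 228 in BrM2. Replicate 1 was far below the others in each line, and BrM2 was the lowest within each number. Its log2 fold change in BrM2 was -0.91 ± 0.521 against Par (adjusted p = 0.342) and -0.87 ± 0.521 against LM2 (adjusted p = 0.407). With the block these became -0.96 (adjusted p = 0.000269) and -0.89 (adjusted p = 0.000646). The log2 fold change of -0.04 ± 0.517 between LM2 and Par passed in neither fit (adjusted p = 0.985, and 0.71 with the block). HIF1A-AS2, on the opposite strand, covers 6.77% of the exon bases of HIF1A.

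EPAS1, which encodes HIF-2 alpha, was at 122, 100 and 107 CPM in Par replicates 1 to 3, at 112, 80.4 and 75.7 in LM2, and at 68.9, 51.8 and 53.4 in BrM2. The BrM2 libraries lay below the other 6, while LM2 and Par overlapped. It was 1.89-fold lower in BrM2 than in Par (log2 -0.92 ± 0.216, adjusted p = 0.0233), and the call was lost without any of the Par replicates or BrM2 replicate 2 or 3 (log2 -0.98 to -0.83, adjusted p from 0.0599 to 0.119). In BrM2 against LM2 the log2 difference of -0.62 ± 0.216 passed only with the block (adjusted p = 0.132 without and 0.00187 with it). Per kilobase EPAS1 stood at 0.453 to 0.573 of HIF1A in the replicate 1 libraries and at 0.119 to 0.18 in the others, with no separation of the lines.

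A further 69 genes of the same pathways, from lists of glycolysis and hypoxia genes that are not members, were counted for comparison. Of the 56 that were tested, 1 was higher and 4 lower in LM2 against Par, 1 higher and 7 lower in BrM2 against Par, and 0 higher and 6 lower in BrM2 against LM2. These are 8.93%, 14.3% and 10.7% of those tested, close to the 8.65%, 13.2% and 8.08% of all genes. Their median log2 fold changes were -0.09, -0.30 and -0.23. With the block 25, 30 and 23 passed, which is 44.6%, 53.6% and 41.1% against 34.5%, 42.7% and 37.5% of all genes. Those lower in LM2 were HKDC1, PPFIA4, SLC2A12 and AK4, a mitochondrial adenylate kinase. HKDC1 kept this call in all 9 fits that leave out 1 library, but PPFIA4 lost it in 4 (without Par replicate 2 or 3 or LM2 replicate 1 or 3), SLC2A12 in 6 (Par replicate 2 or 3, any LM2 replicate or BrM2 replicate 3) and AK4 in 8 (any library other than BrM2 replicate 1). The log2 fold changes in these fits were -1.50 to -1.28, -1.39 to -1.01 and -0.82 to -0.66. Of the genes lower in BrM2 than in LM2, the 5 with the largest falls were AKAP12, STC1, BHLHE41, BHLHE40 and SLC2A12, of which AKAP12 and SLC2A12 kept the call in only 2 and 3 of the 9 fits. AKAP12 lost it without any library other than Par replicate 1 or LM2 replicate 1 (log2 -2.53 to -1.87), and SLC2A12 without Par replicate 2, LM2 replicate 2 or 3 or any BrM2 replicate (-1.28 to -1.02). HKDC1, a further hexokinase, was at 9.19, 6.87 and 8.61 CPM in Par replicates 1 to 3, at 2.83, 2.49 and 2.61 in LM2, and at 1.55, 1.37 and 0.863 in BrM2. Where HK2 was higher in BrM2, HKDC1 was 6.56-fold lower than in Par (log2 -2.71 ± 0.277, adjusted p = 0.000358), and was 3.11-fold lower in LM2 (-1.64 ± 0.259, adjusted p = 0.00491). The glucose transporter SLC2A12 was 5.31-fold lower in BrM2 than in Par (log2 -2.41 ± 0.296, adjusted p = 0.000934). STC1, a secreted glycoprotein induced by HIF, was 2.42-fold higher in LM2 than in Par (log2 1.27 ± 0.205, adjusted p = 0.00528) and 3.76-fold lower in BrM2 than in LM2 (-1.91 ± 0.209, adjusted p = 0.000754). BHLHE40 and BHLHE41, transcriptional repressors that HIF induces, were lower in BrM2 than in Par by log2 -1.57 ± 0.228 (adjusted p = 0.00217) and -1.37 ± 0.274 (adjusted p = 0.0109). The BHLHE41 call was lost without BrM2 replicate 2 or 3 (log2 -1.26 and -1.25, adjusted p of 0.0554 and 0.0612). PPFIA4 was 7.50-fold lower in BrM2 than in Par (log2 -2.91 ± 0.377, adjusted p = 0.00122). It had 15, 19 and 28 counts in BrM2 replicates 1 to 3, and HKDC1 had 21, 31 and 18, so their folds are imprecise. IGFBP3, which binds insulin-like growth factors, was the 1 gene of these that was higher in BrM2 than in Par (log2 1.24 ± 0.21, adjusted p = 0.00503).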

How the data were processed

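RNA was measured in 9 libraries of Par, LM2 and BrM2. The authors made stranded mRNA libraries, aligned paired ends to hg38 with STAR 2.7.0 (version as in the submitters' processing notes too) and deposited raw counts per gene, which are the values used. The strand counted is not given in the sources used here. The authors' table of DESeq2 log2 fold changes and adjusted p-values was not used.

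The table has 58887 rows. For 3 identifiers listed under 2 symbols each with identical counts, 1 row was kept, leaving 58884 genes. A filter after HTSFilter tried 100 thresholds from 1 to 200 on a gene's largest normalized count. It took 49.2, where the loess-smoothed (span 0.3) Jaccard index of replicates peaked, and kept 13001 genes with 99.6% to 99.8% of counts. Intervals and p-values rest on 19878879 to 23948742 counts per Par library, 23581487 to 24511786 per LM2 library and 14371858 to 22055215 per BrM2 library. Low-count genes such as CA9 are the least precise.

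Lines were compared in edgeR 4.0.16 (R 4.3.3) with TMM factors (0.845 to 1.07) and the 2-sided quasi-likelihood test, with line as the only term, all 9 libraries in the fit and Benjamini-Hochberg adjustment over all tested genes. SE is the absolute log2 fold change divided by the square root of F. Groups came from the sample labels. The scripts were tested on simulated counts. Alternatives were the replicate block, RLE factors, DESeq2 1.42.0, no filter on low counts, and leaving out each library or each replicate number. For pair ratios, which add 0.5 count, adding 1 count was the alternative.

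The labels do not say what a replicate number shares across lines. Deviations from the line means correlated at 0.23 to 0.90 across genes in all 9 same-number pairs, and the numbers were used as a block. The correlations set replicate 1 apart, but do not settle the matching of numbers 2 and 3. Between Par and LM2 the same numbers correlated more (0.50 and 0.81 against 0.39 and 0.68). Par replicate 2 correlated at 0.23 with BrM2 replicate 2 and 0.41 with BrM2 replicate 3. LM2 replicate 3 correlated at 0.75 with BrM2 replicate 3 and 0.80 with BrM2 replicate 2. The highest correlation between different numbers was 0.80. The common dispersion was 0.11 without and 0.0207 with the block.

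Per-kilobase levels used transcript lengths of the GENCODE annotation lifted to GRCh37, as did gene overlaps and shared 50-base stretches. Coordinates and promoters are GRCh38.p14 from RefSeq, and both strands were searched for ACGTG and GCGTG.

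The members and lists were chosen with earlier results of these data known. Values are given in full for members past an adjusted p of 0.05 in any line comparison, and for HIF1A, EPAS1, HK2, SLC2A1, LDHA, VEGFA and CA9 whatever their result. Of further pathway genes, at most the 5 largest rises and 5 largest falls per comparison were named.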

Additional observations from a re-analysis of the deposited data

Results flagged for a closer look

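For 6 members the change from Par differed between BrM2 and LM2, which is the direct test of BrM2 against LM2 in edgeR. The log2 difference was 1.74 for HK2 and 1.58 for MXI1, both higher in BrM2. It was -4.03 for CA9, -1.44 for CA12, -1.84 for ANGPTL4 and -1.60 for ALDOC, all lower in BrM2. In each of the 6 the 3 BrM2 libraries did not overlap with the 3 LM2 libraries. The 6 were picked by the test on these same libraries, so the lack of overlap is no separate support. Of all tested genes, 8.08% were called in this comparison and 23.1% had libraries that did not overlap. The CA9 value rests on 5, 1 and 4 counts in BrM2.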

How the results depend on the processing

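The calls in the line comparisons depended most on the replicate number. With the replicate block, members called went from 5 to 21 in LM2 against Par, from 11 to 25 in BrM2 against Par and from 6 to 20 in BrM2 against LM2, and further pathway genes from 5, 8 and 6 to 25, 30 and 23. Over all 13001 genes the calls in these comparisons rose with the block from 1125 to 4487, from 1721 to 5551 and from 1051 to 4880. The block made calls and ended none among the named genes. Leaving out 1 library gave 1 to 5, 3 to 12 and 4 to 7 members, and 2 to 9, 6 to 11 and 3 to 6 further genes. Over all 13001 genes the same fits called 585 to 1252, 940 to 2104 and 540 to 1207. In LM2 against Par the lowest member count was 1, without Par replicate 3 or LM2 replicate 2. In BrM2 against Par it was 3, without BrM2 replicate 3. Over all genes these fits called 699, 585 and 940. Leaving out 1 replicate number in all lines gave 0 to 19, 0 to 26 and 0 to 18 members and 0 to 22, 0 to 27 and 0 to 16 further genes. The highest counts were without replicate 1, and the lowest without replicate 2 or 3. All of these fits leave out the same number of libraries. Calls over all 13001 genes moved alike. In LM2 against Par they were 4301 without replicate 1, 70 without replicate 2 and 136 without replicate 3. In BrM2 against Par they were 5249, 158 and 273, and in BrM2 against LM2 4240, 53 and 113. With 1 library left out, the replicate 1 contrast called 18 to 33 members, 18 being the count without LM2 replicate 1. Over all 13001 genes the same fits called 7495 (without LM2 replicate 1) to 9706. Without a filter on low counts 7 members were called in BrM2 against Par, beside 2165 of all 34056 genes. DESeq2 called 11 further genes in LM2 and 13 in BrM2 against Par, beside 14.5% and 19.3% of all genes. Among 1536 alternative values of 96 gene results, 1225 kept direction and side of the threshold, 113 gained a call, 189 lost one and 9 changed sign, none of them called. With 1 library left out, the log2 fold change of PKM in LM2 against Par ran from -0.089 (without LM2 replicate 1) to 0.86, that of LDHA in BrM2 against LM2 from -0.15 to 0.0097 (without LM2 replicate 1), that of SLC2A1 in BrM2 against LM2 from -0.25 (without BrM2 replicate 1, and -0.075 without LM2 replicate 3) to 0.67, and that of HIF1A in LM2 against Par from -0.34 to 0.29 (without LM2 replicate 1, 0.046 without Par replicate 2 and 0.23 without Par replicate 3). With a replicate number left out, LDHA in BrM2 against LM2 was at 0.0043 (without replicate 1) and HIF1A in LM2 against Par at 0.033 (without replicate 3). The cause of these changes was not tested. Leaving ALDOA and LDHB out of the member counts, an alternative chosen after seeing the data, left the calls at 5, 11 and 6. Low counts limit CA9, EGLN3, ANGPTL4, ALDOA and LDHB, and in BrM2 also HKDC1 and PPFIA4.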
